A study of Saccharomyces cerevisiae with 6 samples.

Results

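The data described here are the gene counts of the wild-type strain in a study of newly made RNA in budding yeast (*Saccharomyces cerevisiae*). Members are all rows of the gene count table with at least 10 counts in each of the 3 wild-type libraries, so they were chosen by the measured counts themselves. This rule kept 5808 of 7032 rows, left out 1224, and 228 of those left out were at 0 in all 3 libraries. The members held 99.97%, 99.97% and 99.95% of the gene counts in replicates 1, 2 and 3. At the edge of the rule, 19 members had a lowest count of exactly 10, among them *PAU5* with 10, 12 and 13 counts, and 24 rows had a lowest count of 9, among them *YLR122C* with 9, 12 and 9 counts.

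The wild-type strain is listed as BY4741, a laboratory strain of mating type a (MATa his3Δ1 leu2Δ0 met15Δ0 ura3Δ0), carrying the empty plasmid pRS426, whose URA3 gene lets the cells grow without uracil. Cultures were grown at 30°C in synthetic medium lacking uracil, with 2% glucose, to an OD600 of 0.5. They then received 0.32 mg/ml 4-thiouracil for 10 min. The study describes the 3 wild-type libraries as biological replicates, and its other 3 libraries, from a strain lacking *DBP2*, were not compared with them here.

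In transient-transcriptome sequencing (TT-seq), living cells take up 4-thiouracil, a uracil analogue that RNA polymerases build into RNA as it is made. The RNA is broken into fragments, labelled fragments are tagged with biotin and pulled out on streptavidin beads, and the recovered RNA is sequenced. The counts therefore weight what was made during the labelling time, rather than the RNA that had built up before it. Stable RNAs that are abundant in the cell, such as ribosomal RNA, can still be carried along. Here an rRNA depletion and a size selection of the RNA followed the enrichment. Values are given as counts scaled to a library of 1000000 gene counts (CPM), and as CPM per kb of coding sequence where genes of different length are set side by side. CPM are shares of a library and hold no measure of how much RNA a cell made.

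The libraries held 11177517, 12337296 and 13134963 gene counts (replicates 1, 2 and 3). Marker genes were checked against the listed genotype. *MET17*, the gene removed by met15Δ0, had 0 counts in all 3 libraries, and *LEU2* had 2, 0 and 1. *LYS2* had 1, 0 and 1 counts, although the listed genotype has no lys2 allele, so on this gene the libraries go against the listed strain. *HIS3* had 56.5, 68.2 and 156 CPM, where the listed allele, his3Δ1, is a partial deletion. *STE2*, the receptor for α-factor made by a cells, had 1012, 968 and 1218 CPM, while *STE3*, the receptor made by α cells, had 3.13, 2.67 and 7.92 CPM. *URA3* was present in every library at 123, 115 and 81.4 CPM, and the chromosomal gene is deleted in this strain.

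Labelled RNA was spread over many genes but far from evenly. The 10 members with the most counts held 5.76% of all gene counts, the top 100 held 22.6% and the top 1000 held 63.2%, and 562 genes held 50%. Taken one by one, the replicates needed 583, 513 and 522 genes to reach that share. The median member had a mean CPM of 79.1, with 3.41 and 582 CPM at the 5th and 95th percentiles. Among protein-coding members the median was 65.6 CPM per kb, with 7.45 and 548 at the same percentiles. Protein-coding genes took 98.3% ± 0.112 of the counts (SD, n = 3). The shares of RNA classes are those of libraries after rRNA depletion and size selection. How far these steps removed short RNAs such as tRNA was not tested. The 76 snoRNA rows took 0.641% ± 0.115, 6 snRNA rows 0.218% ± 0.0123, 275 tRNA rows 0.0355% ± 0.00814 and 55 mitochondrially encoded rows 0.0784% ± 0.0270 (SD, n = 3 each). Of these rows, 66, 4, 49 and 10 were members.

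The most counted member was *PMA1*, the plasma membrane proton pump, with 8737, 9025 and 7515 CPM. *TDH3*, the main glyceraldehyde-3-phosphate dehydrogenase, followed with 6259, 8992 and 5826 CPM. *YEF3*, the fungal translation elongation factor 3, was almost the same in every library at 5986, 6159 and 6074 CPM, a range of 1.03-fold. *MET6*, methionine synthase, had 7437, 6427 and 3961 CPM, with the lowest value in replicate 3. The remaining 16 of the 20 most counted members were *ENO2*, *CDC19*, *PGK1*, *ADH1*, *FBA1* and *PDC1* of glycolysis and fermentation, the chaperones *SSA1*, *SSA2*, *HSP82* and *HSC82*, both fatty acid synthase subunits *FAS1* and *FAS2*, *ALD6*, *ILV5*, *DLD3*, and *SCR1*. Only *SCR1*, which is the RNA component of the signal recognition particle, encodes no protein. It stood at 4407, 5841 and 5975 CPM. *LSR1*, the U2 snRNA, followed it among non-coding members with 1859, 1637 and 1615 CPM, and *SNR17A*, a copy of the U3 snoRNA, had 1353, 1453 and 1187 CPM.

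Long genes gather more counts, and the order of protein-coding members shifted once counts were divided by coding length. *SPO24*, a short open reading frame of 204 bases, led with 8049 ± 2827 CPM per kb, followed by *TDH3* with 7033 ± 1718 and *YDR524C-B* with 6904 ± 1302 CPM per kb (SD, n = 3 each). The difference between these neighbours in the order was smaller than the spread of either. *MFA2*, which encodes the a-factor pheromone, and the cell wall protein genes *CCW12* and *CWP2* came next with 5151 ± 1701, 5009 ± 636 and 4400 ± 1008 CPM per kb. For genes this short the untranslated ends are a large part of the transcript, so their CPM per kb of coding sequence is overstated. With members split into 5 equal groups by coding length, the median was 90.3 CPM per kb in the group of the shortest genes and 55.3 in that of the longest (Spearman rho = -0.16 over 5507 genes, given as a description since genes share the same libraries).

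The label replaces uracil, so uracil content was set beside the level. With coding sequences split likewise into 5 groups by uracil share, the group with the least uracil had a median of 73.1 CPM per kb and that with the most had 57.9 (Spearman rho = -0.086 over 5507 genes, which share libraries). The 260 members with an intron had a median of 146 CPM per kb, against 63.9 for 5247 members without one. Ribosomal protein genes carry many of the yeast introns. Without them the medians were 72.4 CPM per kb for 171 members with an intron and 63.2 CPM per kb for 5199 without.

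Gene functions were then compared by the share of all counts they took. The 38 function lists hold 1290 genes, 1264 of them members, and 47.9% ± 1.95 of the gene counts (SD, n = 3). The 137 cytosolic ribosomal protein genes took the largest share at 5.49% ± 2.19, followed by 134 ribosome biogenesis genes at 4.78% ± 0.739. Next came 25 glycolysis and fermentation genes at 4.72% ± 1.02 and 44 heat shock protein and chaperone genes at 4.36% ± 1.81 (SD, n = 3 each). These 4 shares do not differ beyond their spread. Per kb of coding sequence the lists were further apart. Histones had the highest median at 975 CPM per kb, followed by glycolysis at 875 and ribosomal proteins at 804 CPM per kb, while ribosome biogenesis genes, which are longer, had 192 CPM per kb. Lists that are usually off in haploid cells growing on glucose were low: the median member of the meiosis and sporulation list had 4.49 CPM per kb and that of the galactose list 5.12.

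**Figure D1:**
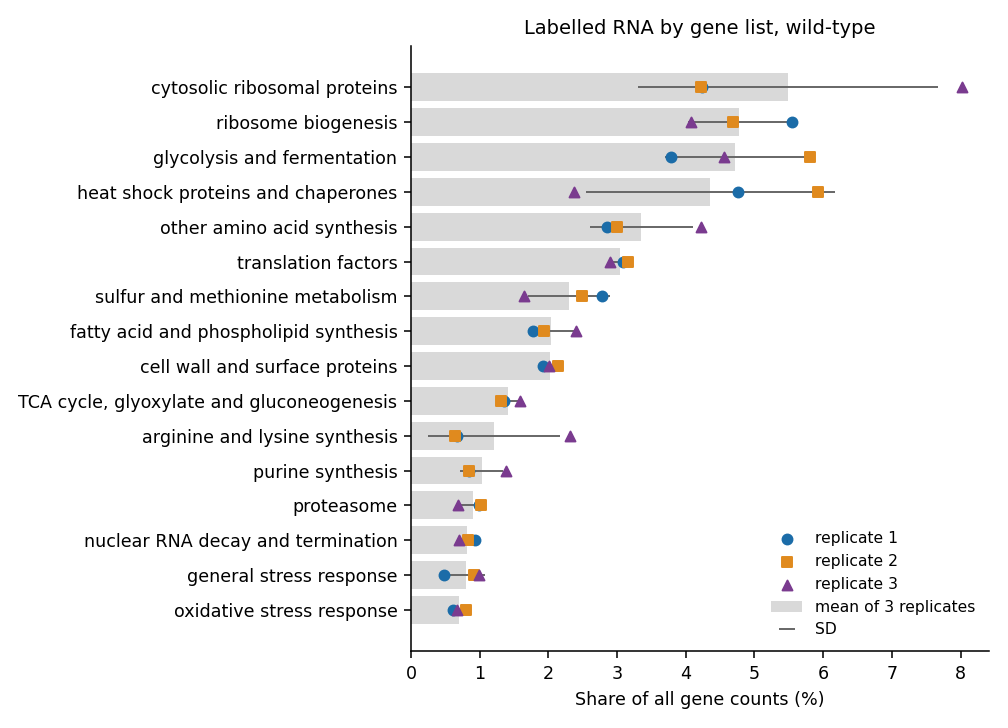
Share of all gene counts (x axis, percent) taken by the 16 function lists with the largest shares (y axis) in wild-type. Bars are means of 3 replicates, lines are SDs and symbols are the replicates. Ribosomal proteins lay at 4.23% and 4.21% in replicates 1 and 2 and at 8.02% in replicate 3, whereas translation factors stayed between 2.89% and 3.16%.

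The same lists differed in how steady they were. Cytosolic ribosomal protein genes took 4.23%, 4.21% and 8.02% of the counts in replicates 1, 2 and 3, and arginine and lysine synthesis genes took 0.672%, 0.646% and 2.32%. Chaperones were lowest in replicate 3, with 4.77%, 5.93% and 2.37%. The general stress response list was low in replicate 1 instead, at 0.486%, 0.915% and 0.993%. Translation factors held 3.09%, 3.16% and 2.89%, and mitochondrial ribosomal proteins 0.494%, 0.459% and 0.435%.

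How far members varied among the 3 replicates was described by the fold range, the highest CPM over the lowest. The median member had a fold range of 1.36, and 5% of members exceeded 2.82. At least 2-fold was reached by 739 members (12.7%) and at least 4-fold by 132 (2.27%). Set against the mean of the other 2 replicates, replicate 3 was at least 2-fold higher for 319 members (5.49%) and at least 2-fold lower for 111 (1.91%). Replicate 1 was at least 2-fold lower for 261 members (4.49%) and higher for 16 (0.275%), and replicate 2 was higher for 65 (1.12%) and lower for 111 (1.91%). Since the replicates are of 1 group, no test was made and these shares are the background against which each list is read below.

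The replicates were not equally alike. Between replicates 1 and 2, 173 members differed at least 2-fold, against 557 between replicates 1 and 3 and 460 between replicates 2 and 3. The common biological coefficient of variation, edgeR's estimate of spread beyond counting noise, was 26.3%, and it was 19.6% with replicates 1 and 2 alone. Over 5212 members with a mean CPM of at least 10, the first principal component placed replicate 3 at 0.79, against -0.58 and -0.21 for replicates 1 and 2. It held 72.5% of the variance between replicates, and the second held 27.5%. With 3 replicates there are only these 2 components. Chromosome medians stayed within -0.14 and 0.13 on the log2 scale for every nuclear chromosome and replicate. The 9 members placed on the mitochondrial chromosome had a median of 1.21 in replicate 3. Of these, 7 reached a 2-fold range, against 12.7% of all members. The class of mitochondrially encoded rows holds 10 members, of which 8 reached a 2-fold range, and its median level was only 13.7 CPM. Wide ranges are more common among weak members: 37.1% of those from 3 to 10 CPM reached a 2-fold range, and 14.4% of the 723 in the next range upward. *COX1*, a subunit of cytochrome c oxidase, had 23.3, 15.2 and 38.8 CPM, and *21S_RRNA*, the large mitochondrial ribosomal RNA, had 447, 383 and 651 CPM.

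The median spread was wider than counting noise at every level of expression. Below 3 CPM the median coefficient of variation was 27.6%, where counting noise alone gives 21.0%. From 3 to 10 CPM it was 28.3%, against 11.8%. It was smallest between 30 and 100 CPM at 14.2%, against 3.75% from counting noise, and larger again at 22.3% from 1000 CPM upward, against 0.731%. A 2-fold range was reached by 34.4% of 259 members below 3 CPM, by 37.1% of 337 members from 3 to 10 CPM, by 5.81% between 30 and 100 CPM and by 25.6% of the 125 members at 1000 CPM or more. The minimum of 10 counts removes weak genes with a low replicate, so the spread of the weakest members is understated. With a minimum of 1 count, 18.5% of 6438 genes reached a 2-fold range, against 12.7% of members.

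**Figure D2:**
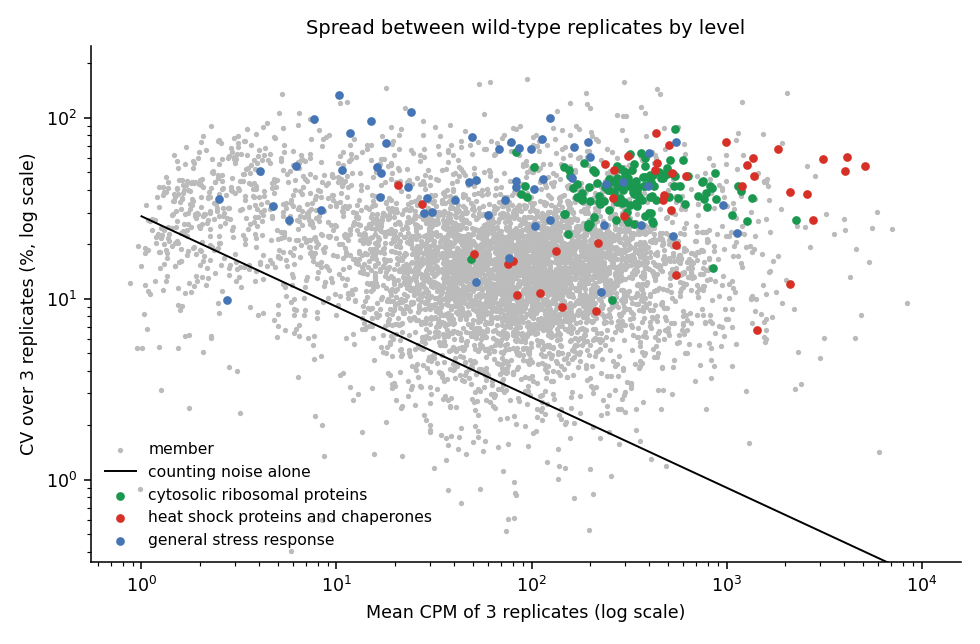
Coefficient of variation over 3 replicates (y axis, percent, log scale) against mean CPM (x axis, log scale) for the 5808 members, with the line that counting noise alone would give. Coloured points are 3 function lists. The chaperones and general stress genes lie mostly above the cloud of other members, with median coefficients of variation of 38.5% and 44.3%, against 15.95% over all members, and ribosomal protein genes are at 41.3%.

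The 3 largest fold ranges were those of *ARO10*, *ARO9* and *ARG3*, all high in replicate 3. *ARO10*, a decarboxylase in the breakdown of aromatic and branched-chain amino acids, had 3.76 and 6.73 CPM in replicates 1 and 2 and 274 CPM in replicate 3, a 72.8-fold range from 42, 83 and 3593 counts. *ARO9*, the aromatic aminotransferase of the same pathway, had 4.74, 5.35 and 174 CPM. *ARG3*, which makes citrulline in arginine synthesis, had 27.3, 26.5 and 835 CPM. *TDH1* and *RTC2* followed with fold ranges of 27.1 and 26.9. *ARG1*, the enzyme after *ARG3* in arginine synthesis, had 410, 434 and 5300 CPM, a 12.9-fold range. In *ARO9*, *ARG3* and *ARG1* replicates 1 and 2 were close together and replicate 3 far above both, and in *ARO10* replicate 2 also lay above replicate 1.

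All 18 members of the arginine and lysine synthesis list were highest in replicate 3, as were 35.3% of all members. Of these, 12 were at least 2-fold above the other 2 replicates, against 5.49% of all members, and the list median was 1.20 on the log2 scale. *ARG56* had 396, 304 and 2887 CPM. Of 53 genes for synthesis of other amino acids, 39 were highest in replicate 3, with a median of 0.52. *HIS5* of histidine synthesis had 99.1, 111 and 395 CPM. Purine synthesis gave a median of 0.45 with 9 of 23 members at least 2-fold above, led by *ADE17* with 70.2, 77.4 and 1165 CPM. *SNZ1* and *SNO1*, a neighbouring pair for vitamin B6 synthesis, had 38.7, 40.9 and 494 CPM, and 2.86, 2.59 and 48.2 CPM. *INO1*, the first enzyme of inositol synthesis, had 85.2, 108 and 1170 CPM, and *OPI3* of phosphatidylcholine synthesis had 184, 288 and 966 CPM.

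Ribosomal protein genes behaved alike. All 137 were highest in replicate 3, against 35.3% of all members. The median was 0.95 on the log2 scale for replicate 3 over the mean of the others. At least 2-fold above were 51 genes, against 5.49% of all members. Large subunit genes (81) and small subunit genes (56) had the same median of 0.95, and genes with an intron (89) and without one (48) had 0.97 and 0.88. *RPL3* had 1991, 1826 and 2971 CPM, and *RPL28*, the list's largest fold range, had 296, 249 and 1096 CPM. The genes that build the ribosome did not share this pattern. Of 134 ribosome biogenesis members, 123 were highest in replicate 1 and 124 lowest in replicate 3, against 45.7% and 39.2% of all members. With TMM scaling, 103 were highest in replicate 1. The list median was -0.39 in replicate 3, and 2 members reached a 2-fold range, against 12.7% of all members. *RPA190*, the largest subunit of RNA polymerase I, had 2135, 1835 and 1806 CPM. None of the 67 mitochondrial ribosomal protein genes reached a 2-fold range, against 12.7% of all members and 5.81% of those between 30 and 100 CPM.

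**Figure D3:**
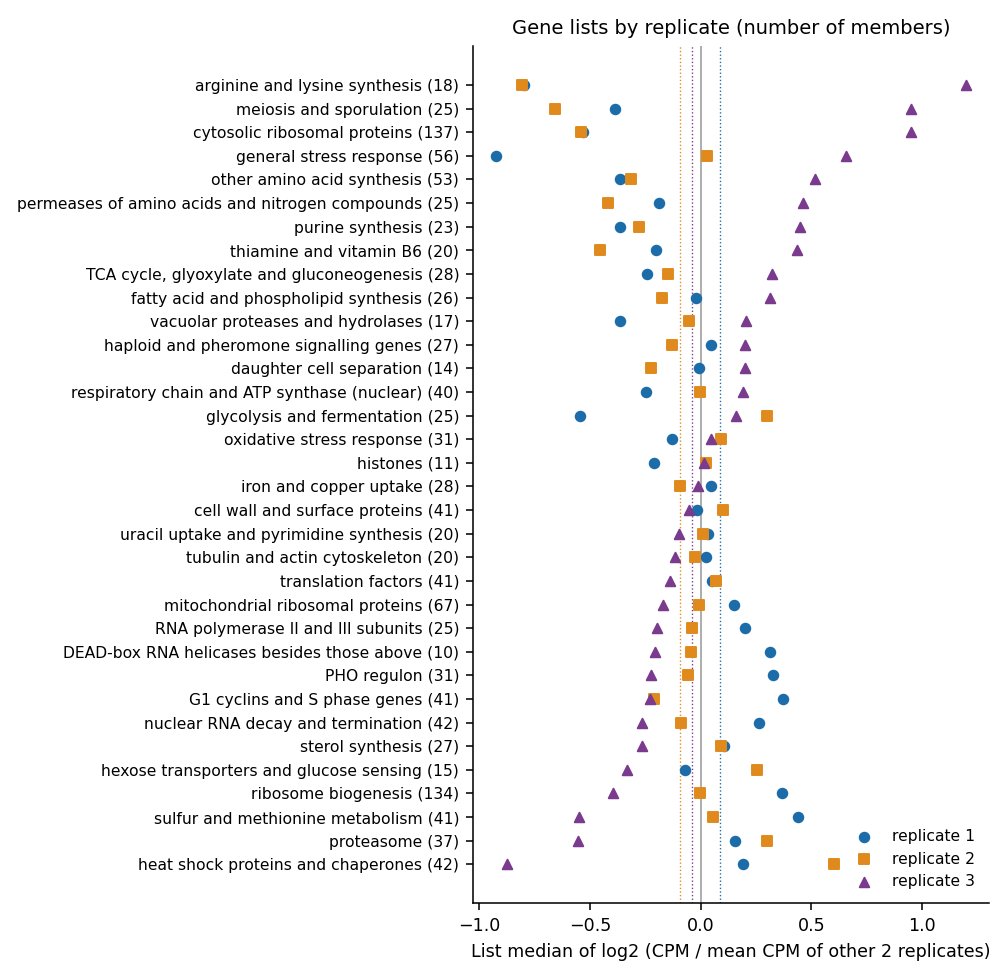
Median over each function list of the log2 ratio of 1 replicate to the mean of the other 2 (x axis), for lists of at least 10 members (y axis, number of members in parentheses), ordered by replicate 3. Symbols are replicates and dotted lines are the medians over all members (0.09, -0.09 and -0.04). Replicate 3 runs from -0.88 for chaperones to 1.20 for arginine and lysine synthesis, and replicate 1 is lowest for the general stress response at -0.92. Without replicate 2 the chaperone value in replicate 3 was -0.49. The replicate 3 median of the weakly counted meiosis list, 0.95, was -0.085 with a minimum of 50 counts.

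Chaperones and the proteasome were low in replicate 3. *HSP82* and *HSC82*, the HSP90 pair, had 5048, 6047 and 1283 CPM, and 5320, 5179 and 1672 CPM. *SSA1* and *SSA2*, cytosolic HSP70s whose sequences are partly identical so that counts between them are uncertain, had 3433, 4832 and 1150 CPM, and 5927, 7360 and 2018 CPM. *BTN2*, a sorting factor for misfolded proteins, had 1239, 1561 and 171 CPM. Of 42 chaperone members, 31 were lowest in replicate 3 and 21 at least 2-fold below, against 1.91% of all members, and 30 were highest in replicate 2, against 19% of all. All 37 proteasome members were lowest in replicate 3, against 39.2% of all members (36 with TMM scaling), with a median of -0.55. *RPN4*, the transcription factor of proteasome genes, had 442, 298 and 148 CPM, and the other 36 stayed within a 2-fold range. Replicate 1 was the lowest in 9 of the 42 chaperone members, no more than the 24.6% of all members. Among these 9 was *HSP30*, a plasma membrane heat shock protein, at 29.3, 705 and 566 CPM.

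Sulfur and phosphate genes included further members low in replicate 3. *MMP1* and *MHT1*, a divergent gene pair for uptake of S-methylmethionine and its use to make methionine, had 630, 486 and 41.3 CPM, and 164, 128 and 12.2 CPM. The high-affinity methionine permease gene *MUP1* had 2053, 1475 and 724 CPM. Of 41 sulfur and methionine members, 27 were lowest in replicate 3, against 39.2% of all members, and 15 were at least 2-fold below, against 1.91%. In the same list 11 members were highest in replicate 3, and 8 were at least 2-fold above in replicate 1, against 0.275% of all members. The phosphate transporter genes *PHO84* and *PHO89* had 266, 187 and 17.9 CPM, and 15.03, 13.1 and 3.04 CPM. These were the only 2 of 31 PHO regulon members at least 2-fold below in replicate 3, and the list median was -0.23.

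Some genes of the general stress response and of glycolysis were low in replicate 1. *TDH1*, a glyceraldehyde-3-phosphate dehydrogenase isoenzyme, had 38.4 CPM in replicate 1 and 612 and 1041 CPM in replicates 2 and 3. *ENO1*, an enolase isoenzyme, had 181, 2076 and 1191 CPM, whereas *ENO2* had 5001, 7162 and 4601 CPM. Hexose transporter genes were not uniform: *HXT4* had 40.6, 234 and 158 CPM and *HXT2* had 1457, 1504 and 448 CPM. Of 15 members of that list, 5 were lowest in replicate 1 and 8 in replicate 3, against 24.6% and 39.2% of all members. Of 56 general stress members, 44 were lowest in replicate 1, against 24.6% of all members, and 26 at least 2-fold below, against 4.49% of all members. The same list was also high in replicate 3, with a median of 0.65. There 38 members were highest, against 35.3% of all members, and 17 at least 2-fold above, against 5.49%. *RTC3* had 5.64, 80.1 and 63.6 CPM, *SPI1*, a cell wall protein, had 17, 138 and 183 CPM, and *RGI1* had 11.1, 118 and 81.8 CPM. Some stress genes differed among all 3 replicates: *GPH1*, glycogen phosphorylase, had 26.6, 82.1 and 265 CPM, and *HSP12*, a small membrane-associated stress protein, had 1.52, 3.08 and 26.1 CPM.

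**Figure D4:**
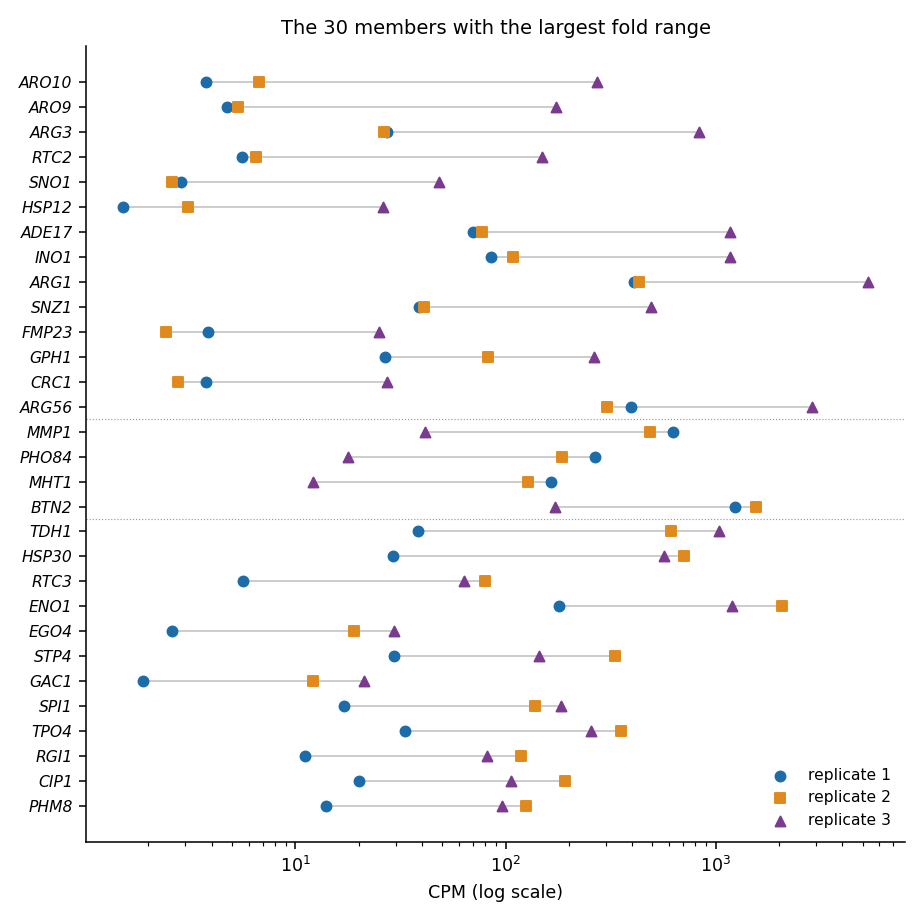
CPM (x axis, log scale) in each replicate for the 30 members with the largest fold range among those with a mean of at least 10 CPM. Dotted lines part the 14 genes whose outlying replicate was a high replicate 3 (top), 4 with a low replicate 3 (middle) and 12 with a low replicate 1 (bottom). *ARO10* spans 3.76 to 274 CPM.

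Of the 103 members with at least a 4-fold range and a mean of at least 10 CPM, replicate 3 was the outlying high one in 44 and the low one in 18, replicate 1 was low in 40, and replicate 2 was high in 1. Other members were steady. Besides *YEF3*, the exoglucanase gene *EXG1* had 1296, 1332 and 1295 CPM and *FKS1*, a glucan synthase subunit, had 2493, 2369 and 2341 CPM. *RPR1*, the RNA of RNase P, had 412, 407 and 418 CPM. *DBP2*, the helicase deleted in the study's other strain, had 982, 903 and 854 CPM, and *ACT1* had 725, 866 and 697 CPM. Histones, sterol synthesis, RNA polymerase II and III subunits, the cytoskeleton and daughter cell separation had no member with a 2-fold range, against 12.7% of all members. These lists hold only 11 to 27 members each. Their median fold ranges were 1.37, 1.25, 1.20, 1.23 and 1.32 in that order, against 1.36 over all members, so histones were not steadier than other members.

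Since several lists are known targets of different transcription factors, the promoters of their genes were searched, on both strands, for short motifs of these factors. The window ran from 250 bases before to 50 after the start codon of the R64 genome, whose build matches the study's. The motifs were the heat shock element core TTCNNGAA, the stress response element AGGGG, the Gcn4 and Bas1 core TGACTC, the Ino2-Ino4 element CATGTGAA, the PAC core GATGAG, the Pho4 and Cbf1 core CACGTG, and the Aro80 element. The windows of 30 bases below, 5′ to 3′ on the coding strand, show a motif match in capitals for some genes with wide fold ranges. They are given whether or not the gene's own list is counted by that motif below. A motif on the other strand appears as its reverse complement. Only genes with a match were picked, so the windows do not show how many genes with wide fold ranges lack one. *ARO10*, *ARG3* and *ARG1* are not among them.
HSP82 (chrXVI:98842-98871, minus strand): ttttcttttttTTCTAGAAcgccgtggaag
HSC82 (chrXIII:632127-632156, plus strand): ggcacttttctTTCTAGAAggtgaaagaac
BTN2 (chrVII:772364-772393, plus strand): atattttcttcTTCTTGAAagaaatatcag
TDH1 (chrX:338030-338059, plus strand): atagtctgaagaAGGGGgggaggagcatgt
RTC3 (chrVIII:280608-280637, plus strand): taacaacaacgaCCCCTtatttagtcgaag
ARG56 (chrV:295175-295204, plus strand): ttcttatccgaaTGACTCagtctacatcaa
ADE17 (chrXIII:509440-509469, minus strand): ccagaaatgaatTGACTCctctcataactt
SNZ1 (chrXIII:458217-458246, plus strand): gccatttcttcaTGACTCtgacacactctg
ARO9 (chrVIII:375470-375499, plus strand): tactattgCCGCCGACGGCCGtagataata
INO1 (chrX:136154-136183, minus strand): aatgcggCATGTGAAaagtattgtctattt

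*HSP82* and *HSC82* carry the same 8 letters in the first window, TTCTAGAA. The heat shock element core was found in 20 of 42 chaperone promoters (47.6%), against 13.1% of all 5894 promoters. The stress response element was in 34 of 56 general stress promoters (60.7%), against 22.0% of all. TGACTC was in 9 of 18 arginine and lysine promoters (50%) and 29 of 53 of the other amino acid promoters (54.7%), against 8.13% of all. The PAC core was in 122 of 134 ribosome biogenesis promoters (91.0%), against 19.9%. CACGTG was in 10 of 41 sulfur promoters (24.4%) and 9 of 31 PHO promoters (29.03%), against 2.95%, and the Ino2-Ino4 element in 10 of 26 lipid promoters (38.5%), against 0.713%. *ARO9* had 5 matches to the Aro80 element, which 2.21% of all promoters hold. A match of letters is a description of the sequence and was not tested as a binding site.

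**Figure D5:**
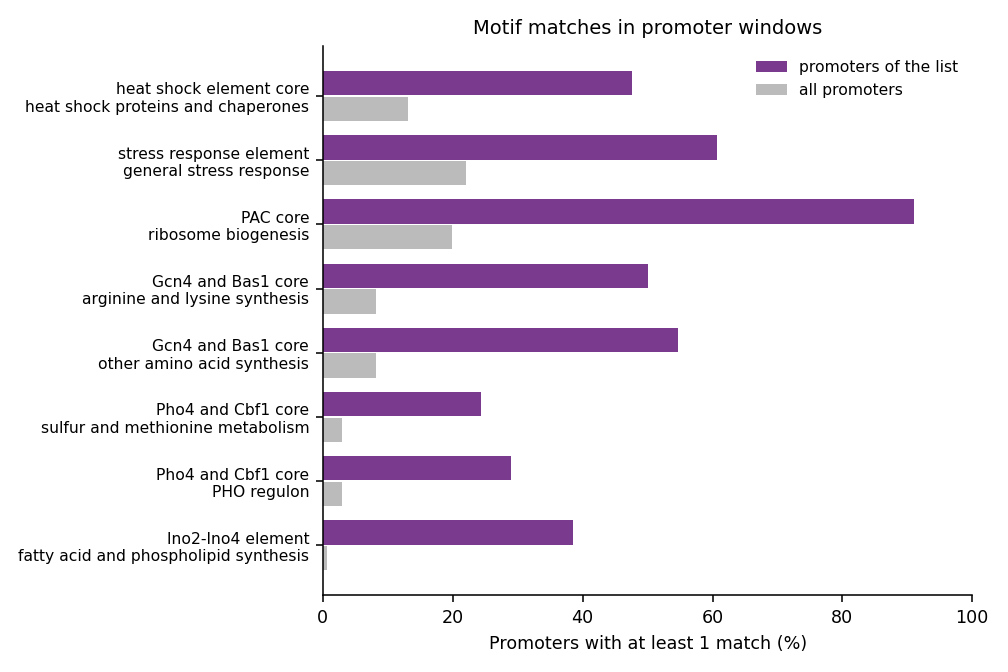
Percent of promoter windows with at least 1 match to a motif (x axis), for the 8 pairs of motif and function list named on the y axis; purple bars are the list and grey bars all 5894 promoters. The list bar is longer than its grey bar in all 8 pairs, from 24.4% against 2.95% for sulfur genes to 91.0% against 19.9% for ribosome biogenesis. Each list was paired with a motif of factors already known to target it, so longer list bars were likely beforehand. Other pairs of motif and list are not drawn.

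Position along the genome was examined last. Members under 30 kb from a chromosome end were 271 of 395 rows there and had a median of 25.1 CPM per kb, against 68.5 for members farther in. With a mean of at least 10 CPM, 11.3% of those near an end reached a 2-fold range, against 9.92% farther in. Of 4591 pairs of adjacent members, 3 pairs had both genes at a 4-fold range or more with a mean of at least 10 CPM: *MHT1* and *MMP1*, *SNO1* and *SNZ1*, and *YIL165C* and *NIT1*. In each pair both genes deviated in the same replicate and direction. The first pair is divergent with 342 bp between the genes, the second is divergent with 448 bp, and the last is in tandem, 9 bp apart. Among the 5212 members with a mean of at least 10 CPM, 103 reached a 4-fold range. Whether 3 pairs is more than unrelated neighbours would give was not tested.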

How the data were processed

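The authors deposited raw counts per gene (7032 rows, 1 column per library, none unmapped: 0). Per the submitters' processing notes, featureCounts and edgeR were used with build R64. The paper names a directional library kit, but no aligner and no strandedness setting of the counting is given in the sources used here. Whether overlapping genes share reads in these counts is therefore not known. The 3 wild-type columns were used, and the columns of the other strain and the antisense table were not used here. CPM were computed over all rows of a library. Rows with at least 10 counts in each library are members. Spread was estimated with edgeR 4.0.16 in R 4.3.3, with TMM and an intercept only, and tested on simulated data. DESeq2 1.42.0 gave alternative size factors. Other steps used Python 3.11.15, numpy 2.4.6 and pandas 2.3.3. The R64 annotation matched 5602 of 5808 members. No p-value was computed, since replicates of 1 group hold no contrast. Members and lists were chosen with earlier results of these data known. Named genes are those with the most counts, the most CPM per kb, the largest fold ranges, the leading 4 and most variable 2 of each list, marker genes and rows at the edge of the minimum. *YIL165C*, *NIT1* and the printed windows were picked once their values were known. Alternatives tried were other scalings, minimums of 50 and 1 counts, other denominators and each replicate left out.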

Additional observations from a re-analysis of the deposited data

How the results depend on the processing

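The limits are 3 replicates of 1 group and, for weak members, depth. With a minimum of 1 count, which admits 6438 genes, a 2-fold range was reached by 1193 and a 4-fold range by 315. Replicates 1, 2 and 3 were then 2-fold above for 88, 119 and 488 genes and 2-fold below for 409, 275 and 219. With a minimum of 50 counts, replicate 2 was below for 58, and the median of the meiosis list in replicate 3 turned to -0.085. With TMM and with DESeq2 size factors, replicate 1 was above for 8 and 8 genes, and these scalings moved the median of all members in replicate 1 by -0.11 and -0.10 on the log2 scale. With 1 replicate left out, 173 to 557 members reached a 2-fold range and 40 to 106 a 4-fold range, both lowest without replicate 3, and the biological coefficient of variation ran from 19.6% to 30.7%. Of 55 alternatives for list medians, 54 moved by less than 1 SD over the replicates, an SD of about the size of the medians themselves. All 50 for list shares did so too, but this could not have come out otherwise. Leaving out 1 of 3 replicates cannot move their mean by 1 SD, and the other denominators hold nearly all counts. The ribosomal protein share was 4.22% without replicate 3, against 5.49% with all 3. The 4 alternatives for concentration stayed within 1.5-fold. Left-out replicates still moved some medians by over 1.5 times: chaperones in replicate 3 to -0.49 without replicate 2, chaperones in replicate 2 to 1.00 without replicate 1 and 0.24 without replicate 3, and general stress in replicate 3 to 0.36 without replicate 1 and 1.09 without replicate 2. In windows of 600 bases, chosen after seeing the data, the shares with a match were 69.0% (chaperones), 89.3% (general stress), 56.1% (sulfur), 64.5% (PHO), 72.2% (arginine and lysine) and 69.8% (other amino acids). Over all promoters they were 26.8%, 42.2%, 34.5%, 7.48%, 17.2% and 1.75% for the heat shock, stress, PAC, Pho4 and Cbf1, Gcn4 and Bas1, and Ino2-Ino4 motifs. The Gcn4 and Bas1, Ino2-Ino4 and Aro80 motifs and the search for adjacent pairs were also added after seeing the data. No paired analysis was possible because only 1 group was described.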
